A study of Homo sapiens with 8 samples.

Results

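The 6 mature miRNAs described here are miR-4485-3p, miR-4485-5p, miR-10395-3p, miR-10395-5p, miR-3609 and miR-12136. They were selected from the 594 miRNAs of a small RNA sequencing study because their scaled read levels were higher in cells without Dicer than in wild-type cells, so that difference is given below as a description and is not tested. The cells were of the H1 line, established pluripotent stem cells from a human embryo. Each of 4 groups had 2 libraries: wild type, homozygous for the Dicer substitution S1344L, hemizygous for S1344L, and Dicer-null. S1344L is a recurrent tumour substitution in the enzyme, and CRISPR-Cas9 was used to make the mutant lines. RNA came from separate biological samples, but the labels do not say how many clones stand behind a genotype, and no drug or other treatment is named. An RNA spike-in was added to every sample, and 0 spike-in entries are in the table.

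Most animal miRNAs are made in a pair of cuts. Drosha releases a hairpin in the nucleus, and Dicer cuts off its loop in the cytoplasm, leaving a 5p and a 3p arm of which one is usually kept in an Argonaute protein. miR-451 is the classical exception, since Argonaute 2 cuts its short hairpin in place of Dicer. Catalogues of miRNAs also hold entries whose sequence lies inside another abundant RNA, such as a transfer RNA, a ribosomal RNA or a small nucleolar RNA (snoRNA, a guide for the chemical modification of other RNAs). Reads of such an entry can be pieces of that RNA. Mitochondria carry their own ribosomal and transfer RNAs, and the nuclear genome holds many copies of mitochondrial DNA.

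A mature sequence was found in RefSeq (GRCh38.p14) for 533 of the 594 miRNAs and for 2 of the 6 members, miR-4485-3p and miR-12136. Both are shown because each also occurs, base for base, in a mitochondrial RNA. The seeds, bases 2 to 8, by which a miRNA pairs with its targets, are in capitals.
miR-4485-3p: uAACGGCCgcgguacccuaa
miR-12136: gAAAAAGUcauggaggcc
These seeds differed from each other, and 0 other miRNAs of the table had either of them. The first is 20 bases long and the second 18 bases, against a median of 22 bases. Only 9 of the 533 (1.69%) had at most 18 bases, and 31 (5.82%) had at most 20 bases.

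The hairpin of miR-4485 lies on the minus strand at chr11:10508270-10508326 (GRCh38), and its 3p arm at chr11:10508277-10508296. It is inside an exon of MTRNR2L8, a nuclear gene derived from the mitochondrial large-subunit ribosomal RNA. The hairpin and the matching stretch of that ribosomal RNA, MT-RNR2 (GENCODE 29), are printed with the 3p arm in capitals.
hairpin MIR4485: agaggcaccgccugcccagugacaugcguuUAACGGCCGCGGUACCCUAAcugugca
MT-RNR2 stretch: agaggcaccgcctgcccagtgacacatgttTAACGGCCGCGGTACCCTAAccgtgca
They were identical at 53 of 57 bases, and the stretch covers positions 863 to 919 of the 1559 bases of MT-RNR2. The 3p arm itself was identical in both. It also matched transcripts of MTRNR2L12 and MTRNR2L8, so reads of this sequence cannot be assigned to the nuclear or the mitochondrial RNA from the letters alone.

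The hairpin of miR-12136 lies on the minus strand at chr1:632615-632685, with the mature part at chr1:632668-632685. Here the annotation has a row of mitochondrial-like pseudogenes. The hairpin sits in an intron of AL669831.3 on the same strand, and its end overlaps an exon of the pseudogene MTCO1P12 on the opposite strand. Below, the hairpin and MT-TS1, a mitochondrial serine transfer RNA, have the mature part in capitals.
hairpin MIR12136: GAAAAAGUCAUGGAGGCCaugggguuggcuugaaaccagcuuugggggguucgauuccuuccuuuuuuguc
MT-TS1 stretch: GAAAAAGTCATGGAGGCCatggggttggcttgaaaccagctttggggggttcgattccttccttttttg
The first 69 of the 71 hairpin bases were identical to the whole transfer RNA, and miR-12136 is its first 18 bases. The nuclear and the mitochondrial copy cannot be told apart in this sequence either.

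Of the 533 miRNAs with a sequence, 9 (1.69%) matched another small or ribosomal RNA exactly over their whole length. The RNA classes searched held no nuclear transfer RNAs, so matches to those would be missed. How fully they held nuclear ribosomal RNAs was not checked, so matches to these could be missed too. The 2 with a mitochondrial match (0.375%) are both members, and the other 7 matched a snoRNA or a scaRNA, its relative in Cajal bodies. The predicted folds of both member hairpins were weak. RNAfold gave -29.1 kcal/mol per 100 bases for MIR4485 and -27.2 for MIR12136, against a median of -46.1 and quartiles of -52.2 and -40.1 over 361 hairpins. MIR3609 lies at chr7:98881650-98881729 on the plus strand, in an intron of TRRAP, a scaffold of histone acetyltransferase complexes. Mature sequences of miR-4485-5p, miR-10395-3p, miR-10395-5p and miR-3609, and the place of MIR10395, were not used here.

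The miRNA reads ranged from 1000101 to 2725756 in the 6 libraries with a Dicer allele and were 165317 and 137655 in the Dicer-null libraries. Values are RPM, that is, reads scaled by a denominator that the authors set for each library. It is not the total of the miRNA reads, which came to between 2.09 and 2.43 times the denominator in 5 of the libraries with a Dicer allele, 0.729 in hemizygous replicate 1, and 0.118 and 0.183 in the null libraries. Hemizygous replicate 1 therefore stood apart, with 565 of the 594 miRNAs lower than in hemizygous replicate 2. RPM of 1 read ranged from 0.715 to 1.33, and the 3 reads that a count of 0 allows correspond to between 2.14 and 3.99 RPM. All members had at least 9 reads in every library. The 8 stem-cell miRNAs of a marker list, such as the miR-302 family, summed to between 830029 and 889641 RPM in the wild type and between 61845 and 83721 RPM in the null. Their sums were between 1060050 and 1153470 RPM in homozygous and between 369241 and 1195310 RPM in hemizygous cells. The 4 neural markers summed to at most 29561 RPM and the 4 measured fibroblast markers to at most 27708 RPM in any library, and miR-143-3p and miR-145-5p of the latter were at 0 in a null library. These markers are miRNAs themselves, so their low sums in cells without Dicer say nothing about which cells were present. In bulk RNA, fewer cells of a type and less RNA per cell cannot be told apart.

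miR-12136, whose sequence opens the mitochondrial serine transfer RNA shown above, was the most abundant member in every library. It was at 1676 and 991 RPM in wild-type libraries, 1808 and 2892 in homozygous, 2627 and 1903 in hemizygous and 4906 and 10936 in null libraries. Both null libraries were above the 6 others, and the 4 S1344L libraries were above both wild-type libraries. From the mean of 1333 ± 484 RPM (SD, n = 2) in wild-type cells to that of 7921 ± 4264 in null cells, the ratio was 5.94. Its reads per library numbered from 1158 to 8217.

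miR-4485-3p, the sequence shared with the mitochondrial ribosomal RNA, had few reads where Dicer was present. Wild-type libraries had 39 and 9 reads (30.4 and 7.70 RPM), homozygous 20 and 12 (21.2 and 14.4 RPM), hemizygous 77 and 15 (56.1 and 19.8 RPM) and null 102 and 245 (72.9 and 326 RPM). Each null library again stood above the 6 others, and null replicate 2 stood far above null replicate 1. The partner arm miR-4485-5p was at 59.96 and 17.1 RPM in wild-type libraries, 33.9 and 42.1 in homozygous, 94.7 and 43.6 in hemizygous and 74.3 and 341 in the null. Its null libraries were above the wild-type and homozygous libraries and overlapped with the hemizygous, since hemizygous replicate 1 was above null replicate 1.

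Next to miR-12136, miR-10395 was the most abundant member hairpin, and both of its arms are in the table. miR-10395-5p was at 405 and 152 RPM in wild-type libraries, 294 and 385 in homozygous, 869 and 272 in hemizygous and 812 and 2641 in null libraries. miR-10395-3p was at 177 and 54.8 RPM in wild-type libraries, 77.3 and 83.0 in homozygous, 391 and 89.9 in hemizygous and 357 and 1287 in null libraries. In both arms hemizygous replicate 1 was above null replicate 1, so the hemizygous and null groups overlapped, and hemizygous replicate 2 was within the range of the wild type.

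miR-3609, encoded in the TRRAP intron, varied least among the libraries with a Dicer allele. It was at 35.8 and 23.1 RPM in wild-type libraries, 30.7 and 33.7 in homozygous, 47.4 and 30.4 in hemizygous and 110.04 and 273 in the null. Both null libraries were above the 6 others. In all, 3 members (miR-4485-3p, miR-3609 and miR-12136) had this order, as had 6 of the 594 miRNAs.

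**Figure D1:**
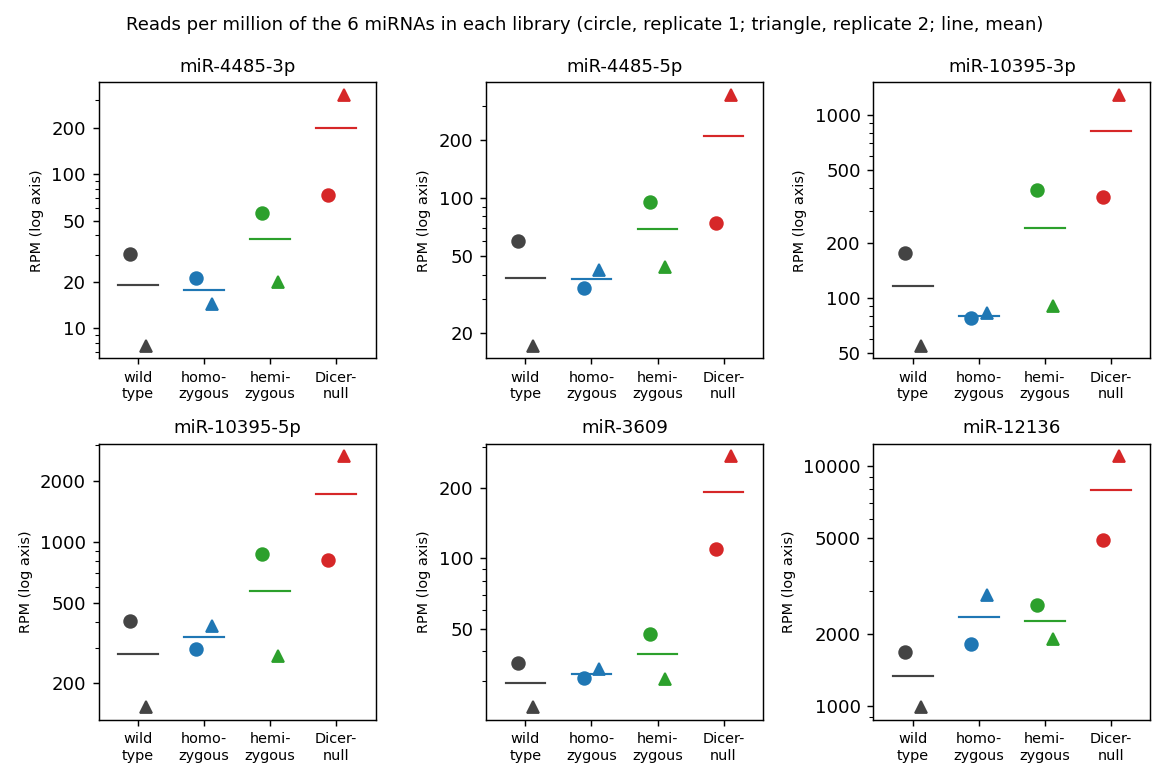
RPM (scaled reads, log axis) of each of the 6 miRNAs by genotype; circles are replicate 1, triangles are replicate 2 and lines are group means. Null replicate 2 is the highest library in each panel, from 273 RPM for miR-3609 to 10936 RPM for miR-12136, and wild-type replicate 2 is the lowest.

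The members shared much of their order of libraries. Null replicate 2 exceeded null replicate 1 in 6 of 6, by between 2.23 and 4.58 times. Over all miRNAs the median of replicate 2 minus replicate 1 was 0.79 on the log2 scale in the null pair. The order of the null pair was therefore common in the table. Wild-type replicate 1 exceeded replicate 2 in 6 of 6, by between 1.55 and 3.94 times, where the median over all miRNAs was 0.23, the other way round. Wild-type replicate 2 was the lowest library of all for each member. Hemizygous replicate 1 exceeded replicate 2 in 6 of 6, by between 1.38 and 4.35 times, and was the highest library outside the null for 5; for miR-12136 that was homozygous replicate 2. Most other miRNAs lay the other way round in the hemizygous pair, where the median over all miRNAs of replicate 2 minus replicate 1 was 1.94 on the log2 scale. For the members it was between -2.11 and -0.46. The members were not alone in this order. miR-1248, miR-1291, miR-664b-3p, miR-4449, miR-3662, miR-1275 and miR-1272, described below, also had replicate 1 above replicate 2 in the wild-type and hemizygous pairs. In the hemizygous pair miR-1248 was at 651 and 305 RPM and miR-664b-3p at 110 and 26.4 RPM. These miRNAs were named for nearness to the members in null difference or in pattern, and likeness in pattern favours such an order.

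Summed over the 6 members, the level was 2384 and 1246 RPM in wild-type libraries, 2266 and 3450.3 in homozygous, 4086 and 2359 in hemizygous and 6332 and 15803 in null libraries. The summed reads, with no scaling, were 3061 and 1456, 2139 and 2870, 5607 and 1785, and 8861 and 11874 in the same order. The 3 libraries with the fewest miRNA reads for their denominator, both null and hemizygous replicate 1, were the 3 with the most member reads. The part of miRNA content or depth in the members' levels was not tested.

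As a share of the miRNA reads, the members made up 0.114% (95% Wilson interval 0.110 to 0.118) and 0.0534% (0.0507 to 0.0562) in the wild type. Homozygous libraries had 0.0934% (0.0895 to 0.0975) and 0.158% (0.152 to 0.164). Hemizygous libraries had 0.561% (0.546 to 0.575) and 0.0974% (0.0930 to 0.102). Without Dicer the share was 5.36% (5.25 to 5.47) and 8.63% (8.48 to 8.78). These intervals cover the counting of reads within a library and not the spread between libraries. The labels name no molecular identifiers, so copies made by PCR count as separate reads. miR-12136 alone supplied between 64.3% and 83.8% of the member reads of a library. Ranked by RPM within each library, miR-12136 was 155th and 194th of the 594 in the wild type and 7th and 4th in the null. miR-10395-5p went from 245th and 364th to 20th and 12th, and miR-3609 from 450th and 506th to 92nd and 77th.

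**Figure D2:**
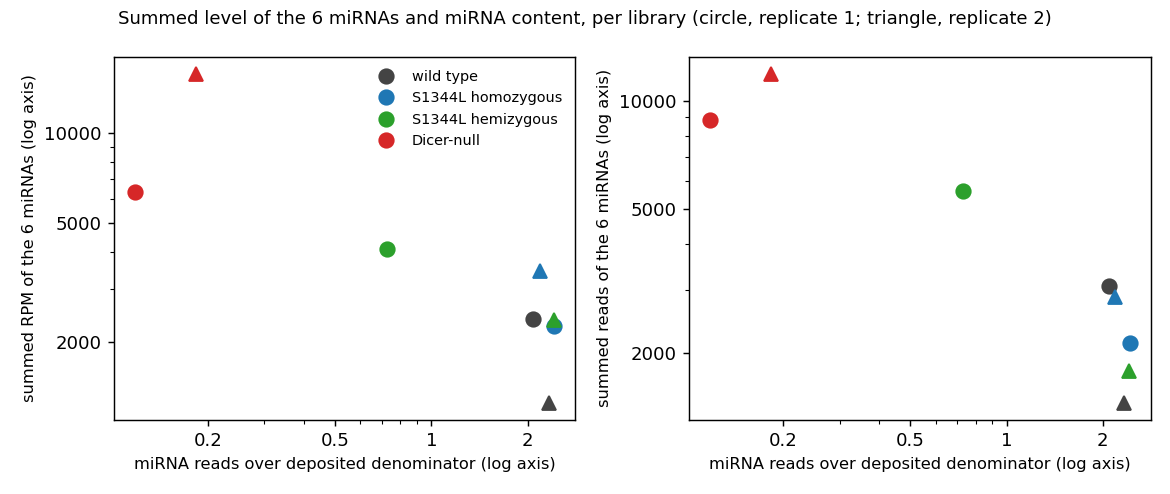
Summed RPM (left) and summed reads (right) of the 6 miRNAs in each library, against the miRNA reads of that library over its deposited denominator; all axes are logarithmic, and colours are genotypes. The null libraries, at 0.118 and 0.183 on the horizontal axis, and hemizygous replicate 1, at 0.729, have the highest sums.

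The difference that chose the members, null minus wild type on the mean log2(RPM + 1) scale, was 3.23 for miR-4485-3p, 2.77 for miR-10395-3p, 2.55 for miR-10395-5p, 2.55 for miR-3609, 2.51 for miR-12136 and 2.27 for miR-4485-5p. Among all 594 miRNAs the median was -4.60, and 32 were above 0. The members took ranks 3 to 8, and their ratios of mean RPM ran from 5.39 (miR-4485-5p) to 10.5 (miR-4485-3p). Both null libraries were above both wild-type libraries for 15 miRNAs, which is 2.53%, and for 6 of 6 members, as the choice of members fixes. Counted in unscaled reads, there were again 15 such miRNAs, and 536 miRNAs were below in both null libraries by RPM. Dividing by each library's own miRNA reads moved the median of all miRNAs to -1.16 and the members to between 6.10 and 7.003. Median-ratio and upper-quartile factors put the median at -0.66 and -0.13 and the members at between 6.60 and 7.93. The members were above 0 under each of these 4 scalings. That is no test, since they were chosen above 0 and the other scalings moved the median of all miRNAs up. For the table as a whole the sign depends on the scaling: 154, 203 and 273 of the 594 miRNAs were above 0 by own reads, median-ratio and upper-quartile factors, against 32 on the deposited scale.

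Just above the members by this difference were miR-1248 (3.43) and miR-1291 (3.32), and just below were miR-4449 (1.98), miR-664b-3p (1.95) and miR-3662 (1.79). Both miRNAs above them match a snoRNA, SNORA81 for miR-1248 and SNORA2C for miR-1291. miR-1248 was at 294 and 104 RPM in wild-type libraries, 165 and 369 in homozygous, 651 and 305 in hemizygous and 917 and 3886 in null libraries. The miRNAs whose pattern over the 8 libraries was most like the mean of the members were miR-1248 (Pearson r = 0.98), miR-4449 (0.96), miR-1291 (0.96), miR-1275 (0.90) and miR-1272 (0.89), among 486 with a mean of at least 50 RPM in some group. These r describe libraries of 4 genotypes and share their depth. They include the null and wild-type libraries that chose the members, so a high r partly restates a high null level.

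On the deposited scale, the 7 miRNAs with an exact match in a snoRNA or scaRNA were all above 0 in null minus wild type, from 0.56 to 3.43, where 24 of the 533 miRNAs with a mature sequence were. They are miR-1248, miR-1291, miR-3651, miR-664a-3p, miR-664a-5p, miR-664b-3p and miR-6516-3p, and were picked by sequence. Both miR-664a arms match SNORA36B. Wild-type and null libraries overlapped for miR-664a-5p (10.9 and 4.28 RPM against 9.29 and 20.0). They also overlapped for miR-6516-3p (16.4 and 4.28 RPM against 10.7 and 16.0). Under the 3 other scalings these 7 were at between 4.17 and 8.40, but then between 134 and 240 of the 533 were also above 0. Of the 15 miRNAs with both null libraries above both wild-type libraries, 11 had a mature sequence to search with, 2 of them members. Among these 11, 5 had a snoRNA or scaRNA match and 7 had a match in any of the RNA classes searched, both mitochondrial members included. Over all 533 with a mature sequence these numbers were 7 and 9 (1.69%). The 2 members are among the 11 by choice. A list of miRNAs described as arising from snoRNAs had 8 of 13 entries measured and 6 above 0 under each of the 4 scalings, with a median of 1.34 on the deposited scale. Its miR-1306-5p and miR-1306-3p, at -5.97 and -5.03, had no snoRNA match.

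A list of entries described as resembling transfer, ribosomal or other RNAs had 11 of 25 measured, 2 of them members. These members joined the list through their exact mitochondrial matches. On the deposited scale 5 were above 0, both members included, with a median of -0.12, against -4.60 over all miRNAs. Outside the members its values ran from miR-10401-3p (-1.70) through miR-5100 (-1.37), miR-1260b (-1.01), miR-4454 (-0.63), miR-7977 (-0.28) and miR-7704 (-0.12) to miR-3648 (0.06), miR-10401-5p (0.72) and miR-4484 (1.33). Under each of the 3 other scalings 11 of 11 were above 0, so the sign of the lower entries depends on the scaling. In each of the 4 scalings all 11 were above the median of all miRNAs. The 2 members were the highest of the list, which follows from their choice by this same difference.

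miR-451a, made by Argonaute 2, was at 280 and 457 RPM in the wild type and 144 and 110.5 in the null. That is a difference of -1.50 on the deposited scale, and of 2.39 to 3.48 under the 3 other scalings. Among 7 measured miRNAs of a list made without Drosha, 1 was above 0 on the deposited scale (miR-320a-5p, 0.98) and 2 were under the others. The libraries of miR-320a-5p overlapped, at 3.11 and 35.1 RPM in the wild type and 13.6 and 38.6 RPM in the null. miR-484 (-6.53) and miR-320a-3p (-6.13) were below 0 under all 4.

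**Figure D3:**
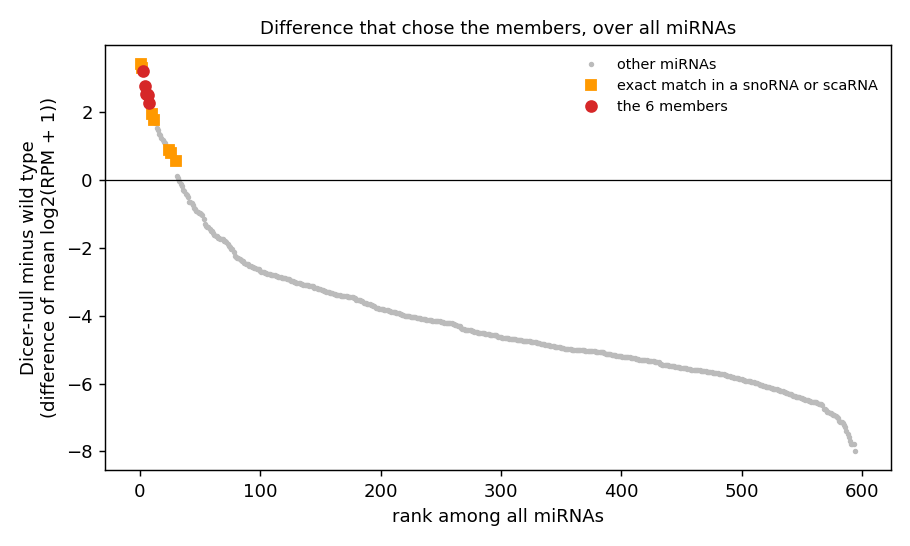
Null minus wild type (difference of mean log2(RPM + 1), vertical axis) against rank for all 594 miRNAs; red points are the 6 members, orange squares the 7 miRNAs with an exact match in a snoRNA or scaRNA. The members hold ranks 3 to 8, and on this deposited scale the line at 0 separates 32 miRNAs above from 562 at or below it.

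Whether the members also differ in cells that keep a mutant Dicer was tested against the same wild-type libraries that entered their choice. That choice favours miRNAs with low values in these wild-type libraries, which can raise the differences from them. In homozygous S1344L cells 0 of the 6 passed (limma, 0 at an unadjusted p under 0.05), where 32.0% of all miRNAs did. The largest difference was in miR-12136, at 0.83 ± 0.85 (log2 fold change ± SE, n = 2 per group, limma adjusted p = 0.554). miR-10395-5p was at 0.44, miR-4485-5p at 0.22, miR-4485-3p at 0.16, miR-3609 at 0.15 and miR-10395-3p at -0.30, with adjusted p between 0.791 and 0.939. miR-10395-3p turned to 0.58 under upper-quartile scaling, which moved the median of all miRNAs from -0.05 to 0.82. The median of the members was 0.19, and it was -0.46 without wild-type replicate 2 and 1.09 without wild-type replicate 1. Of the 227 5p arms of the table, 111 passed with a fall and 33 were above 0, with a median of -2.26. The 5p members miR-4485-5p and miR-10395-5p were above 0 by less than their standard errors.

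In hemizygous cells 0 of 6 members passed (limma, 0 at an unadjusted p under 0.05), against 34.5% of all miRNAs. All 6 differences were above 0, as were 169 of the 594 miRNAs, and the signs of the members carry the bias of their choice. miR-4485-3p was at 1.06 ± 1.02, miR-4485-5p at 0.98 and miR-10395-5p at 0.97. miR-10395-3p was at 0.92, miR-12136 at 0.79 and miR-3609 at 0.39 (limma adjusted p between 0.479 and 0.836 over the 6). The median of the members was 0.95, and that of all miRNAs was -0.92. Scaled to each library's miRNA reads, by median-ratio or by upper-quartile factors, the median of the members was 1.65, 2.02 and 2.65, and that of all miRNAs -0.24, 0.14 and 0.84. Without hemizygous replicate 1 the 2 medians were 0.23 and -0.00094, and miR-10395-3p turned to -0.13. The members' median was 0.12 without wild-type replicate 2 and 1.71 without wild-type replicate 1. miR-12136 was the 1 member whose libraries did not overlap with the wild type in either S1344L genotype. Such an order, both libraries above both, held for 38.0% of all miRNAs in homozygous and 9.09% in hemizygous cells. miR-12136 passed in a pair of alternatives, a fit of only the 4 libraries of the homozygous comparison (0.83, limma adjusted p = 0.0427) and upper-quartile scaling in the hemizygous (2.62, limma adjusted p = 0.0197).

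The fold changes between hemizygous and homozygous cells used no library from the difference that chose the members. Their standard errors and p-values came from the model of all 8 libraries, which holds those libraries too. Here too 0 of 6 passed (limma, 0 at an unadjusted p under 0.05), and 0% of all miRNAs did (7 at an unadjusted p under 0.05). miR-10395-3p was at 1.22 ± 0.97 (limma adjusted p = 0.660), miR-4485-3p at 0.90, miR-4485-5p at 0.75, miR-10395-5p at 0.53, miR-3609 at 0.23 and miR-12136 at -0.03. miR-12136 turned to between 0.76 and 0.90 under the 3 other scalings. The median of the members was 0.64, against -0.86 over all miRNAs, and without hemizygous replicate 1 it was 0.04 against 0.13. Without hemizygous replicate 2, miR-10395-3p was at 2.27 and passed (limma adjusted p = 0.0413), as did 416 of all miRNAs in that fit, which compares the library that stood apart with the homozygous pair. The errors, near 1 on the log2 scale, leave room for sizeable differences, so a member that did not pass is not shown to be unchanged.

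**Figure D4:**
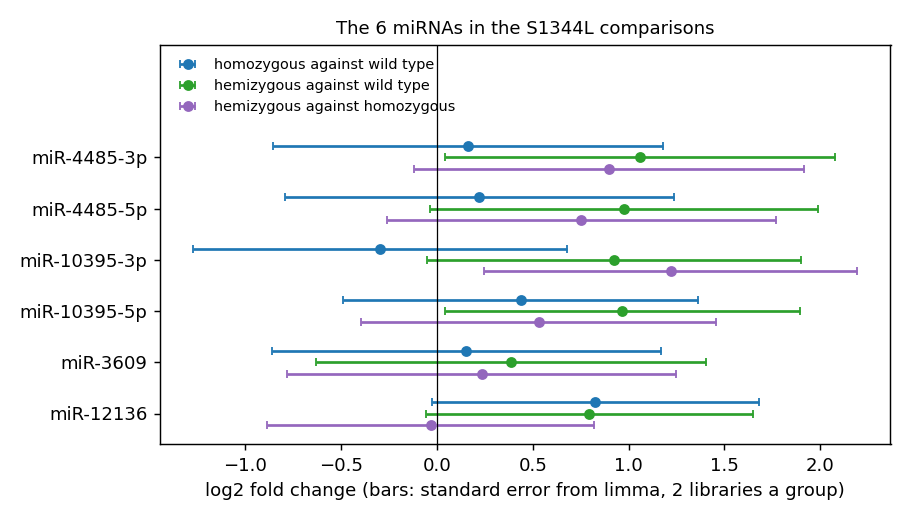
Log2 fold change of each of the 6 miRNAs in the 3 S1344L comparisons, with standard errors from limma as bars (n = 2 libraries per group). None of the 18 values passed, and they run from -0.30 to 1.22.

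Both arms of miR-4485 and of miR-10395 were in the table, so their balance could be compared within a library, where the scaling nearly cancels. The 3p arm of miR-4485 held 33.6% and 31.0% of the reads of both arms in wild-type libraries, 38.5% and 25.5% in homozygous, 37.2% and 31.3% in hemizygous and 49.5% and 48.9% in the null. In miR-10395 the 3p share was 30.4% and 26.4% in wild-type libraries, 20.8% and 17.7% in homozygous, 31.0% and 24.8% in hemizygous and 30.5% and 32.8% in the null. The homozygous libraries of miR-10395 were below the wild type, and those of miR-4485 lay on both sides of it. The null libraries of both hairpins were above the wild type, in miR-10395 only by 30.5% against 30.4% in replicate 1. How many of all hairpins had such orders was not counted, so nothing particular to these hairpins is read from them. On the log2 3p/5p scale, null minus wild type was 0.96 for miR-4485 and 0.21 for miR-10395, given as a description.

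In the S1344L cells most hairpins moved toward their 3p arm. Of 186 hairpins with both arms, 147 passed toward 3p and 2 toward 5p in homozygous cells (limma, 80.1%), with a median change of 3.31. In hemizygous cells 143 and 3 passed (78.5%), with a median of 2.89. Of the member hairpins 0 of 2 passed in either genotype (limma, 0 at an unadjusted p under 0.05). In homozygous cells miR-10395 was at -0.73 ± 0.47 (SE, n = 2 per group, limma adjusted p = 0.165) and miR-4485 at -0.06 ± 0.46 (limma adjusted p = 0.905). In hemizygous cells they were at -0.04 and 0.09 (limma adjusted p = 0.943 and 0.875). Counted from the hairpin that went furthest toward 5p, miR-10395 and miR-4485 ranked 6 and 11 of 186 in homozygous cells and 12 and 16 in hemizygous cells. Between hemizygous and homozygous cells neither member hairpin passed (limma adjusted p = 0.970 for miR-10395 and 0.980 for miR-4485), nor did any other (0%, and 5 at an unadjusted p under 0.05).

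**Figure D5:**
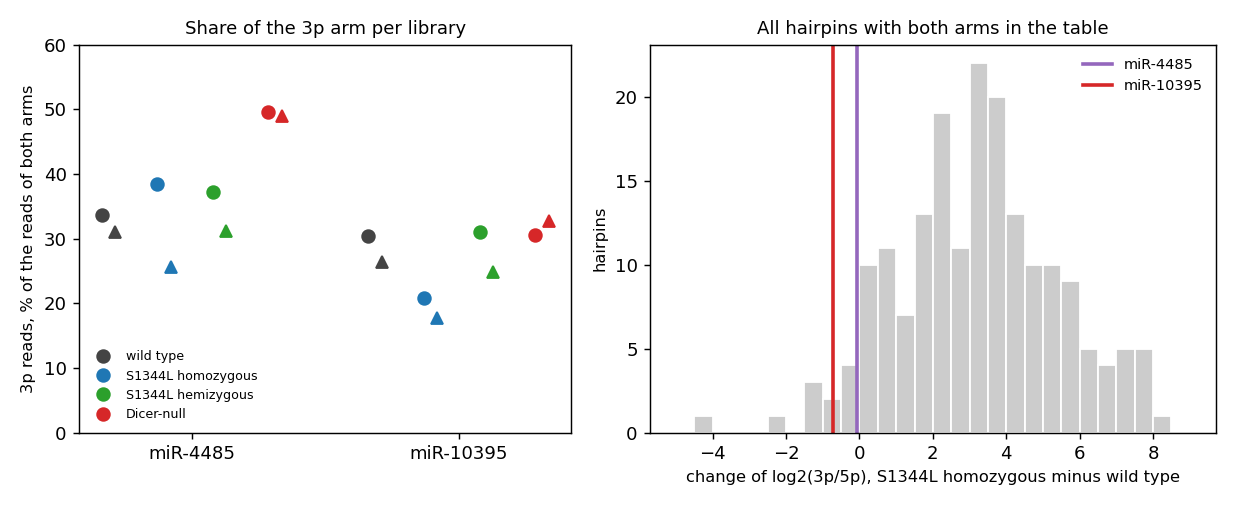
Left, 3p reads as a percentage of the reads of both arms in each library for miR-4485 and miR-10395 (circles, replicate 1; triangles, replicate 2). Right, number of hairpins by the change of log2(3p/5p) in homozygous S1344L cells for all 186 hairpins, with lines at miR-10395 (-0.73) and miR-4485 (-0.06), both below the median of 3.31.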

How the data were processed

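Small RNAs of H1 human embryonic stem cells were sequenced in 8 libraries of 4 genotypes. Per the labels' protocols, linkers were ligated to total RNA, products were selected by size on gels and amplified by PCR. Per the submitters' processing notes, cutadapt, limma and the hg38 build were used; not given in the sources used here are the aligner, the counting, the handling of reads that match several places, the scaling and the miRNA annotation. The authors deposited log2 RPM values with 0.5 of a read added, as read from the values: every value gave a whole read within 0.01, and the largest distance was 7.31e-09. Reads were recovered from these, and RPM was computed from them without the added 0.5.

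log2(RPM + 1) was tested two-sided with limma 3.58.1 in R 4.3.3, in 1 model of 4 group means over all 8 libraries with a variance trend. All 594 miRNAs passed a filter of 5 RPM in 2 libraries, and p-values were adjusted (Benjamini-Hochberg) over all of them, with a threshold of 0.05. Arm ratios used log2 of (3p RPM + 1) over (5p RPM + 1) in 186 hairpins. The fit was checked on simulated data. Null cells were only described. Mature sequences were searched for as exact matches in GENCODE 29 transcripts of small, ribosomal and mitochondrial RNA classes. Those of the members were also searched for in the other transcripts. Hairpins were folded with RNAfold 2.7.2.

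The members and lists were chosen with earlier results of these data known. Named miRNAs are the members, their nearest neighbours in the null difference, the 5 most alike, and list members; miR-6516-3p was named after its values were seen. Alternatives were other pseudocounts, filters and scalings, fewer libraries, no variance trend, a replicate block, leaving out each library, and, added after seeing the data, voom weights.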

Additional observations from a re-analysis of the deposited data

How the results depend on the processing

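Over 11 alternatives for the 18 member fold changes, 2 of 198 values passed and 4 changed sign; with a library left out, 1 of 144 passed and 11 changed sign. Adjusted p ran from 0.0197 to 0.999 (limma). Homozygous calls over all miRNAs went from 190 to 295 when scaled to each library's miRNA reads, 314 with median-ratio and 374 with upper-quartile scaling, and 370 in a fit of only the 4 libraries, which called 1 member, miR-12136 (0.83). Hemizygous calls went from 205 to 316 with median-ratio and 371 with upper-quartile scaling, which called 1 member, miR-12136 (2.62), and to 110 with only 4 libraries. Upper-quartile scaling put miR-10395-3p at 0.58 in homozygous cells. Between hemizygous and homozygous cells miR-12136 was at 0.76, 0.90 and 0.89 under own-read, median-ratio and upper-quartile scaling. These scalings move all miRNAs together; other causes were not tested.

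With 1 library left out, calls ran from 39 to 284 in homozygous cells (lowest without homozygous replicate 2), 109 to 366 in hemizygous cells (lowest without wild-type replicate 2) and 0 to 416 between the S1344L genotypes; a group left with 1 library is assumed to vary like the others. Members called stayed at 0 to 0, 0 to 0 and 0 to 1 (miR-10395-3p, 2.27, without hemizygous replicate 2). Homozygous ranges that crossed 0 were -0.76 to 1.09 for miR-4485-3p, -0.65 to 1.10 for miR-4485-5p, -1.13 to 0.54 for miR-10395-3p, -0.27 to 1.14 for miR-10395-5p and -0.15 to 0.46 for miR-3609, with the wild-type replicates at both ends. In hemizygous cells miR-10395-3p ran from -0.13 to 1.98. Between the S1344L genotypes miR-10395-5p ran from -0.30 to 1.37, miR-3609 from -0.078 to 0.54 and miR-12136 from -0.37 to 0.31. Arm ratios crossed 0 for miR-4485 (-0.47 to 0.35, -0.091 to 0.26 and -0.27 to 0.56 in the 3 comparisons) and for miR-10395 in hemizygous cells (-0.26 to 0.18).

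Replicate numbers are shared between groups, but the labels do not say that they pair samples, and the deviations of same-numbered libraries correlated at -0.01, 0.61 and -0.06 for the 3 pairs of groups compared. With a replicate block, limma called 203, 227 and 0 miRNAs, and 0 members in each comparison. With 2 libraries a group, precision is limited for each member, and counts are as low as 9 reads for miR-4485-3p.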
